A study of Mus musculus with 14 samples.

Results

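Cerebellins and C1q-like proteins are secreted synaptic organisers, and 5 of their genes were followed here: Cbln1, Cbln2, Cbln4, C1ql2 and C1ql3. They were found by the platform's gene symbols among 16593 named genes, and 6 of the 25697 probes on the array read them, 2 of these for Cbln2 and 1 for each other gene. Cbln1 was chosen by its measured signal, which was raised in the inner and reduced in the outer layer of the mutant CA3 field, so its values are given as a description with no test, and the other 4 genes are its relatives. Of the 5 genes, Cbln1, Cbln4 and C1ql2 were above background on all 14 arrays, while Cbln2 and C1ql3 did not pass the detection filter (4 or more arrays with a detection p under 0.05).

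The proteins of this family end in a globular domain like that of complement C1q and act in the synaptic cleft. Cerebellins bind presynaptic neurexins and, on the other side of the cleft, postsynaptic receptors, which for Cbln4 include neogenin (Neo1). C1q-like proteins bind the postsynaptic adhesion receptor Adgrb3, and C1ql2 and C1ql3 from dentate granule cells link neurexins to kainate receptors where mossy fibres contact CA3 pyramidal cells. Cbln1 is best known from cerebellar granule cells, whose synapses on Purkinje cells need it.

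The samples were CA3 tissue of adult Sv129Pas mice, either wild type (WT) or mutant for Dcx, which encodes the microtubule-binding protein doublecortin. CA3 of 5 WT mice (animals 145, 206, 142, 199 and 144) was dissected as a whole. In the Dcx mutants the CA3 pyramidal cells form separate layers, and the outer layer (SPE) of 5 mutants (147, 146, 165, 166 and 148) and the inner layer (SPI) of 4 of these (147, 146, 166 and 148) were taken apart from each other. Each of the 14 samples was read on 1 Illumina bead array, from RNA of pooled dissected pieces. How Dcx was mutated is not stated in the labels. Sample titles set the layer, because the region label of the outer samples carries the inner layer's code in brackets, in conflict with the title and with its own wording. Both layers were compared with WT, so these comparisons share their control arrays, and SPI was compared with SPE.

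The arrays differed in brightness with the groups. Mean raw signal was 371 to 515 intensity units over the WT arrays, 279 to 482 over SPE and 119 to 362 over SPI, and SPI lay below WT (exact two-sided permutation test, p = 0.00794). The dimmest arrays were SPI 147, SPI 148 and SPE 148, and some results are also given without them, among them Cbln1, Cbln4 and C1ql2 against WT. Dcx was read by 3 probes, of which 1 was detected on no array. The most strongly read of the others, at 5.50 to 5.92 log2 units in WT, 4.85 to 5.79 in SPE and 4.64 to 5.64 in SPI, did not pass the test in any comparison. The remaining Dcx probe read 5.15 to 6.12 on 5 WT arrays, all detected, and 4.90 to 5.34 in SPE, where 4 of 5 were detected. It was not above background on any of the 4 SPI arrays, at 4.54 to 4.90, below all WT arrays. All 8 CA3 pyramidal cell markers examined were measured. Their summed signal ranged from 12841 to 14863 in WT, 13267 to 15276 in SPE and 13413 to 15252 in SPI. A sum follows the brightest markers, so it does not show that all 8 were alike. Their median difference was -0.20 log2 units for SPI against WT and -0.35 for SPI against SPE.

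Promoter sequence is shown for the members with an entry in the RefSeq table (GRCm38.p6). Cbln4 and C1ql2 were both higher in the inner layer, while the probe of C1ql3, the closest relative of C1ql2 among the members, read near background. Any link between these sequences and the readings was not tested. Each window holds 250 bases before and 50 after the annotated start, 5′ to 3′ on the strand of the gene. Capitals mark the GC box (GGGCGG) and the cyclic AMP response element half-site (TGACG), searched on both strands. The windows are chr2:172043417-172043716 on the minus strand for Cbln4, chr1:120340332-120340631 on the plus strand for C1ql2 and chr2:13010815-13011114 on the minus strand for C1ql3.
Cbln4: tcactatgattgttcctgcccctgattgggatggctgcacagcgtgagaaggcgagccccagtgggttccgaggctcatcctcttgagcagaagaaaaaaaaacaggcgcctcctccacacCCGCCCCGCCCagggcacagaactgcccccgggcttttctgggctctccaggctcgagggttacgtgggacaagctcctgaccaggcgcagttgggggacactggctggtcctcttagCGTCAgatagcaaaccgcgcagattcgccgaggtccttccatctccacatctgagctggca
C1ql2: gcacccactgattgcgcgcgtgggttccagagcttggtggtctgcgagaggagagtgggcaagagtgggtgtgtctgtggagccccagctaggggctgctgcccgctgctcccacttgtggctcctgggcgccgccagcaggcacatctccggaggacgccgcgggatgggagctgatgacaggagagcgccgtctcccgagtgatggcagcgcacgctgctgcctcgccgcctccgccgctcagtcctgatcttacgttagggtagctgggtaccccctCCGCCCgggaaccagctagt
C1ql3: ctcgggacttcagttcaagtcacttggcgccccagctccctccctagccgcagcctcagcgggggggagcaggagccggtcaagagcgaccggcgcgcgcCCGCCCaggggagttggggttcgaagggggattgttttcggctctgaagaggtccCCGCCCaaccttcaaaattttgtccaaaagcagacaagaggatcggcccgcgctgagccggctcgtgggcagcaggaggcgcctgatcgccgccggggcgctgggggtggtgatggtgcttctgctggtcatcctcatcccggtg
GC content was 60.3% for Cbln4, 67.3% for C1ql2 and 66.3% for C1ql3, against a median of 52.7% over 32851 promoters of the same length. All 3 windows hold a GC box, which 35.7% of all promoters hold, with 2 matches in Cbln4 that share bases in 1 run, 1 in C1ql2 and 2 in C1ql3. The response element half-site occurs once in Cbln4 and in neither of the other two, and 20.8% of all promoters hold it. None of the 3 windows holds TATAAA, found in 13.6% of promoters, and all hold the E-box letters CANNTG, found in 72.3%.

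Cbln1 signal was highest in the inner layer. After background correction and quantile normalisation, its log2 signal was 6.39, 6.36, 6.37, 5.93 and 6.33 in WT animals 145, 206, 142, 199 and 144. It was 6.09, 5.83, 5.76, 5.65 and 5.87 in the outer layer of animals 147, 146, 165, 166 and 148. In the inner layer it was 7.84, 7.88, 7.62 and 7.78 for animals 147, 146, 166 and 148. Every inner array thus lay above every WT and outer array, and the outer arrays sat mostly below WT, with only the outer layer of animal 147 above the lowest WT array. The inner layer was 1.50 ± 0.12 log2 units (SE of the fit) above WT, a 2.82-fold difference, and 1.93 ± 0.10 above the outer layer, 3.82-fold. The outer layer was 0.44 ± 0.11 log2 units below WT, 1.35-fold. These are the values by which Cbln1 was chosen, and they support nothing further. In dissected tissue, fewer cells of a type and less RNA per cell cannot be told apart, for Cbln1 and for the genes that follow.

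Quantile normalisation keeps the rank of a probe within its array, so ranks give the same order by construction. Cbln1 stood at percentiles 69.5 to 72.9 of all probes on the WT arrays, 67.2 to 70.7 on the outer arrays and 81.0 to 82.6 on the inner arrays. Raw signal was 102, 290, 232 and 156 intensity units in the inner layer of animals 147, 146, 166 and 148, and 137 to 216 in WT. Only 2 of the 4 inner arrays were thus above all WT arrays before scaling, and the inner array of animal 147, whose mean signal was the lowest of all arrays, was below every WT array.

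**Figure D1:**
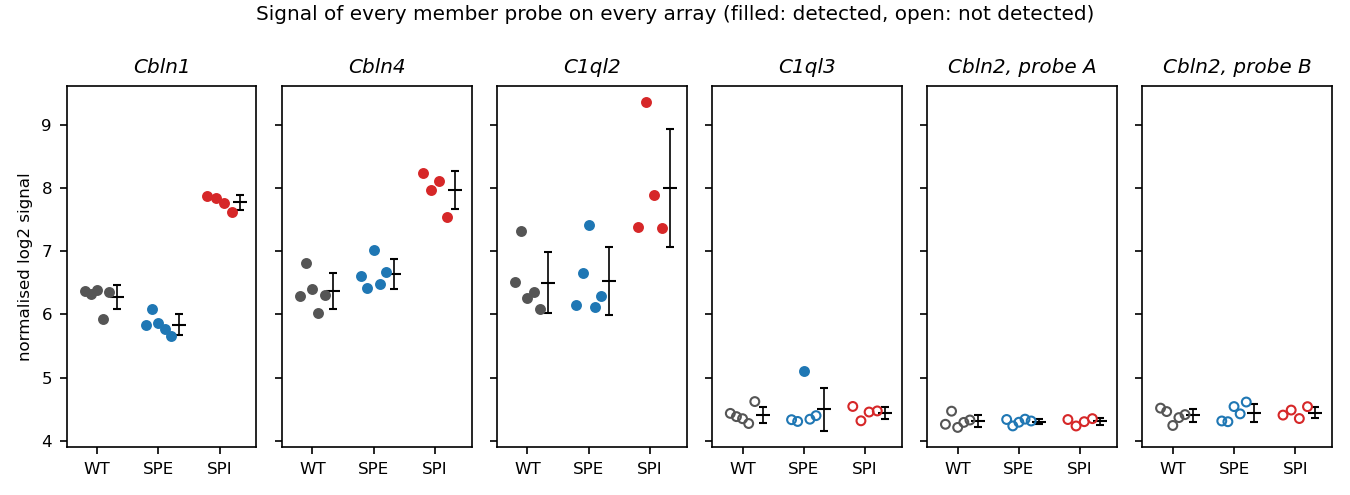
Normalised log2 signal of the 6 member probes on each of the 14 arrays, grouped as WT (n = 5), outer layer (SPE, n = 5) and inner layer (SPI, n = 4); each circle is 1 array, filled where the detection p is under 0.05, and bars are mean and SD. Cbln1 and Cbln4 are higher on every SPI array than on any other array, while C1ql3 is detected on 1 array and neither Cbln2 probe on any.

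Cbln4, a cerebellin known in the cortex from somatostatin interneurons, was also higher in the inner layer. Its log2 signal was 6.40, 6.31, 6.29, 6.03 and 6.82 in WT animals 145, 206, 142, 199 and 144. The outer layers of animals 147, 146, 165, 166 and 148 read 6.42, 6.61, 6.48, 6.67 and 7.03. The inner layers of animals 147, 146, 166 and 148 read 7.98, 8.24, 7.55 and 8.12. The lowest inner array was thus above the highest WT and outer arrays, and WT and outer arrays overlapped. The inner layer exceeded WT by 1.59 ± 0.18 log2 units, 3.01-fold (limma, adjusted p = 5.65e-05 over all 9355 features), with all 4 inner arrays above all 5 WT arrays. It exceeded the outer layer by 1.32 ± 0.15, 2.49-fold (limma, adjusted p = 3.18e-05), and after normalisation was higher in 4 of 4 animals. The outer layer differed from WT by 0.27 ± 0.17 log2 units, which did not pass the test (limma, adjusted p = 0.904; 95% interval -0.088 to 0.63).

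C1ql2, the mossy fibre ligand, was higher in the inner layer with a wider spread. Its log2 signal was 6.26, 6.08, 6.51, 6.36 and 7.33 in WT animals 145, 206, 142, 199 and 144. It read 6.65, 6.16, 6.12, 6.29 and 7.41 in the outer layer of animals 147, 146, 165, 166 and 148. In the inner layer it read 9.36, 7.39, 7.38 and 7.90 for animals 147, 146, 166 and 148. The inner array of animal 147 stood well above the other inner arrays, and the lowest inner array was only just above the highest WT array. The inner arrays of animals 146 and 166 were both just below the outer array of animal 148. The inner layer exceeded WT by 1.47 ± 0.38 log2 units, 2.76-fold (limma, adjusted p = 0.014), and the outer layer by 1.45 ± 0.32, 2.73-fold (limma, adjusted p = 0.00638). The outer layer and WT differed by 0.019 ± 0.365 log2 units (limma, adjusted p = 0.992), with a 95% interval from -0.76 to 0.80 that still holds differences of moderate size.

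The size of the C1ql2 difference rested on animal 147 and on how array brightness was handled. Without the inner array of animal 147 the inner layer exceeded WT by 1.01 (limma, adjusted p = 0.0196) and the outer layer by 0.99 (limma, adjusted p = 0.00497). Without the 3 dimmest arrays, which leaves 2 inner arrays, the inner layer exceeded WT by 0.89 for C1ql2 (limma, adjusted p = 0.0293) and by 1.50 for Cbln1. With log2 mean raw signal as a covariate the differences were 0.43 against WT (limma, adjusted p = 0.439) and 0.61 against the outer layer (limma, adjusted p = 0.157), and neither passed. All inner arrays were dimmer than all WT arrays, so against WT brightness and group cannot be told apart with this covariate. The same holds for the other genes compared with WT below. Over all alternatives run, the adjusted p of C1ql2 in limma ran from 0.0059 to 0.444 against WT and from 0.000406 to 0.157 against the outer layer. Raw C1ql2 signal was 146, 228, 207 and 164 intensity units in the inner layer of animals 147, 146, 166 and 148 and 157 to 302 in WT, so before scaling no inner array exceeded the brightest WT array. The inner array of animal 147 gave the lowest raw C1ql2 signal and the highest normalised one among the 14 arrays. By rank within the array, C1ql2 stood at percentiles 70.7 to 79.2 in WT, 71.0 to 79.7 in the outer layer and 79.4 to 90.6 in the inner layer.

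Cbln4 differed less than C1ql2 with the brightness covariate and without the dimmest arrays. Without background correction the inner layer exceeded WT by only 1.01 for Cbln4 and 0.98 for C1ql2, and the authors' deposited normalised values gave the same. Both calls were kept there. Between layers Cbln4 was 0.87 in both settings. Its difference between inner layer and WT was 1.49 with mean raw signal as a covariate (limma, adjusted p = 0.00318) and 1.55 without the 3 dimmest arrays (limma, adjusted p = 0.000292). Scaling each array to the median of all its probes, most of which were not detected, lowered it to 0.44 (limma, adjusted p = 0.334). The median of all features was then -0.85 log2 units, against 0.035 as reported, so that Cbln4 was 1.29 above that lower median. C1ql2 was 0.25 under this scaling (limma, adjusted p = 0.444) and 1.10 above the median of all features. Over all alternatives run, the adjusted p of Cbln4 against WT ran from 7.3e-06 to 0.334 in limma. Raw Cbln4 signal was 105, 347, 225 and 181 in the inner layer of animals 147, 146, 166 and 148 and 141 to 239 in WT, where only the inner array of animal 146 exceeded all WT arrays.

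**Figure D2:**
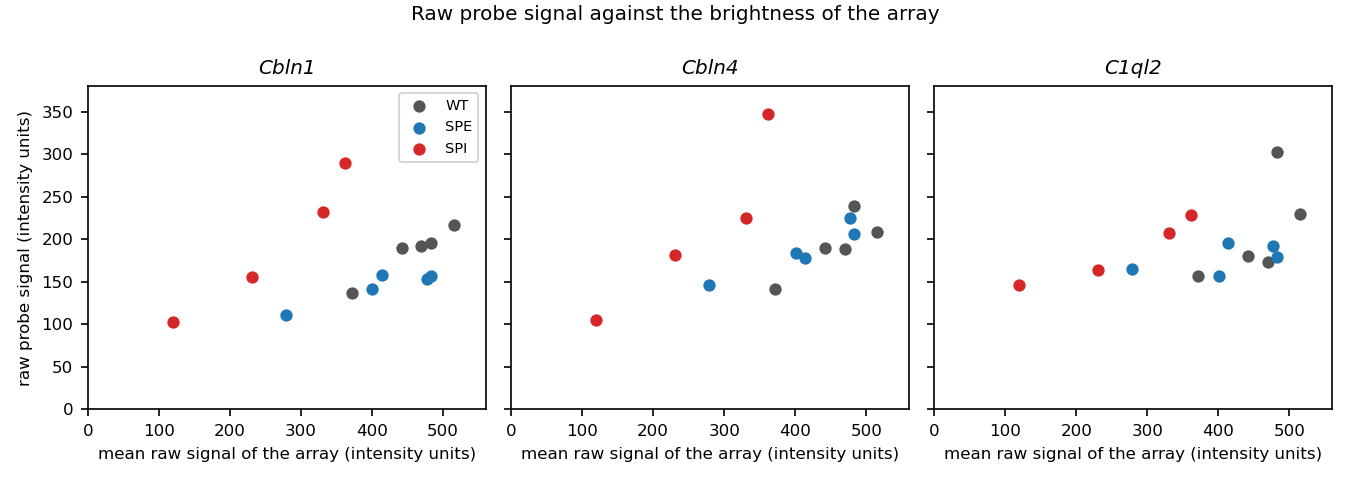
Raw signal of the Cbln1, Cbln4 and C1ql2 probes (intensity units) against the mean raw signal of the same array (intensity units), with 1 point per array for WT, SPE and SPI. SPI arrays have mean signals of 119 to 362, below all WT arrays, although SPE 148, at 279, is dimmer than SPI 146 and SPI 166. No array of another group is as dim as SPI 147 or SPI 148.

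Both tested members were thus called higher in the inner layer than in WT, where 24.5% of all features were called, 13.6% higher and 10.9% lower. Cbln4 and C1ql2 did not overlap between these groups, as was so for 12.6% of features in this direction, 8.90% in the other and 21.5% in either. Against the outer layer Cbln4 and C1ql2 were called again (20.5% of features called, 10.8% higher and 9.65% lower), while of these only Cbln4 did not overlap (6.22% of features in this direction, 3.77% in the other and 9.99% in either). Calls were therefore common in both comparisons, and the count of 2 members is small beside that background. Between the outer layer and WT no feature was called in limma (0%), 358 of 9355 had an unadjusted p under 0.05, and the groups did not overlap for 1.62% of features (0.855% higher, 0.770% lower), none of them a member. Cbln1 is left out of these counts, because the choice of Cbln1 used the same comparisons.

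The layers of the same mutant gave a closer comparison, since the 4 inner samples came from animals that also gave an outer sample. Inner minus outer Cbln1 was 1.75, 2.05, 1.97 and 1.90 log2 units in animals 147, 146, 166 and 148. The same difference for Cbln4 was 1.56, 1.63, 0.88 and 1.09. For C1ql2 it was 2.71, 1.23, 1.09 and 0.48. These normalised differences of Cbln4 and C1ql2 were above 0 in 4 of 4 animals. Raw signal was higher in the inner layer in 3 of 4 animals for Cbln4 and in 2 of 4 for C1ql2. Raw Cbln4 in animal 166 was nearly equal, at 224.7 in the inner and 224.5 in the outer layer. The normalised C1ql2 difference of animal 147 exceeded that of every other animal. The Cbln1 differences are a description of a gene chosen for this difference. With the animal as a fixed block, Cbln4 differed by 1.29 (limma, adjusted p = 0.0195; range over alternatives 1.86e-06 to 0.382) and C1ql2 by 1.38, which did not pass the test (limma, adjusted p = 0.0862).

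**Figure D3:**
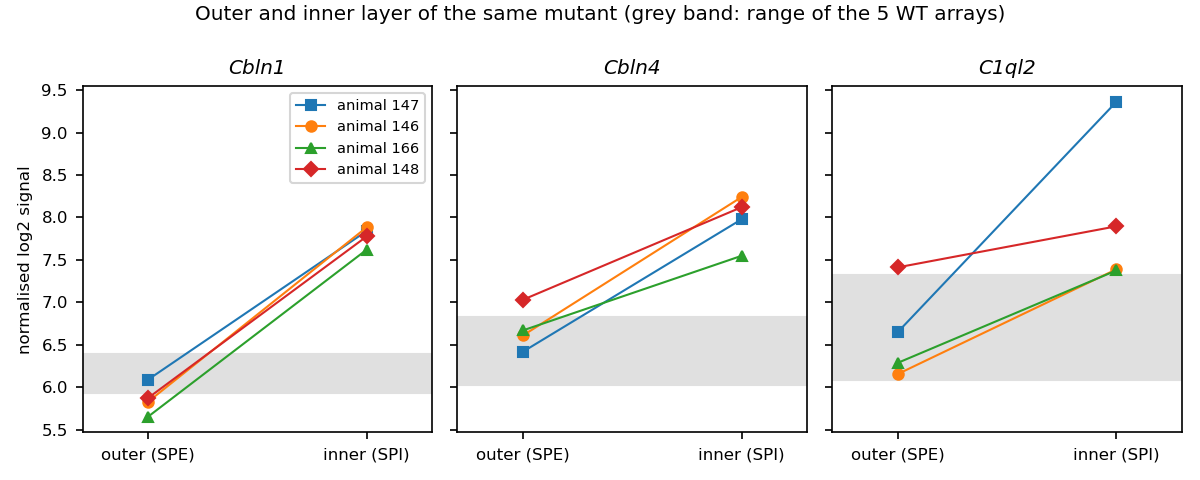
Normalised log2 signal in the outer (SPE) and inner (SPI) layer of the 4 mutants with both, 1 line per animal, for Cbln1, Cbln4 and C1ql2; the grey band spans the 5 WT arrays. All lines rise from outer to inner, and the steepest C1ql2 line is that of animal 147, from 6.65 to 9.36.

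Cbln2 and C1ql3 gave no usable level. Neither probe of Cbln2, another cerebellin that binds neurexins, was detected on any array, with detection p of 0.223 to 0.985 for one and 0.102 to 0.931 for the other. Raw Cbln2 signal was 78.2 to 110 and 83.7 to 115 intensity units. C1ql3, which acts with C1ql2 at mossy fibre synapses, was detected on 1 array, the outer layer of animal 148, at 5.10 log2 units against 4.27 to 4.62 on the WT arrays and 4.31 to 4.54 on the inner arrays. These readings say only that the probes gave no signal above background on nearly all arrays. The other 3 genes of the family on the array, Cbln3, C1ql1 and C1ql4, were detected on 0 of 14 arrays, so the family was represented by Cbln1, Cbln4 and C1ql2.

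Of 11 genes listed as receptors or partners of these ligands, 5 were measured. In the inner layer against WT 1 was called higher and 1 lower, where 13.6% of all features were called higher and 10.9% lower. Adgrb3, the receptor of C1q-like proteins, read 8.33, 8.24, 7.85, 8.01 and 8.53 in WT animals 145, 206, 142, 199 and 144. Its inner layers read 7.68, 7.56, 7.70 and 7.12 in animals 147, 146, 166 and 148. All inner arrays were thus below all WT arrays. Adgrb3 fell by 0.66 ± 0.16 log2 units against WT (limma, adjusted p = 0.0103) and by 0.58 ± 0.14 against the outer layer (limma, adjusted p = 0.00928). The call against WT was lost with mean raw signal as a covariate (limma, adjusted p = 0.11; range over alternatives 0.00516 to 0.11). The call against the outer layer was lost in 4 of 30 alternatives, namely with the animal as a fixed block (limma, adjusted p = 0.0538), with mean raw signal as a covariate (0.062), under median scaling over all probes (0.0702) and without the inner array of animal 148 (0.0922). The lowest adjusted p among the 30 was 0.000928.

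Nrxn3, a presynaptic neurexin bound by both kinds of ligand, was 0.46 ± 0.15 log2 units higher in the inner layer than in WT (limma, adjusted p = 0.0367), and the groups overlapped. A further Nrxn3 probe read a difference of 0.62. The Nrxn3 call was lost in 11 of 29 alternatives and its direction turned in 1 more, median scaling over all probes. Neo1, the neogenin receptor of Cbln4, fell by 0.41 ± 0.14 in the inner against the outer layer (limma, adjusted p = 0.0483). That call was lost in 21 of 30 alternatives, among them without the 3 dimmest arrays (limma, adjusted p = 0.286). Nrxn2, another neurexin, differed between inner layer and WT by -0.30 ± 0.12 (limma, adjusted p = 0.0753). Grik4, a kainate receptor subunit of mossy fibre synapses, differed by 0.23 ± 0.16 (limma, adjusted p = 0.301), and neither passed in the reported fit. Nrxn2 was called lower without background correction (limma, adjusted p = 0.0379) and in the deposited normalised values (limma, adjusted p = 0.0381). It was also called lower under median scaling over all probes (limma, adjusted p = 0.0253). The median difference of the 5 genes was -0.27 against 0.035 over all features. Grik2, another kainate receptor subunit, was detected on 1 array.

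The 3 chains of complement C1q, which share the globular domain with cerebellins but are known from microglia and the complement cascade, were all higher in the inner layer. C1qa exceeded WT by 1.24 ± 0.17 log2 units (limma, adjusted p = 0.000209), C1qb by 1.09 ± 0.17 (limma, adjusted p = 0.000571) and C1qc by 0.51 ± 0.16 (limma, adjusted p = 0.0306). The C1qc call was lost in 10 of 29 alternatives, among them without the 3 dimmest arrays (limma, adjusted p = 0.0857). Its direction turned in 1 more, median scaling over all probes, where it read -0.33. Under that scaling the calls of C1qa (limma, adjusted p = 0.11) and C1qb (limma, adjusted p = 0.885) were lost too. The inner arrays did not overlap WT for C1qa and C1qb, and did for C1qc. Beside this, 4 of 8 measured microglia markers were called higher and their summed signal was 748 to 1090 in the inner layer and 370 to 472 in WT, and the part of microglia in the C1q values was not tested. Of 18 further C1q-domain genes, 6 were measured and none passed in any comparison, with a median of 0.25 for inner layer against WT.

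**Figure D4:**
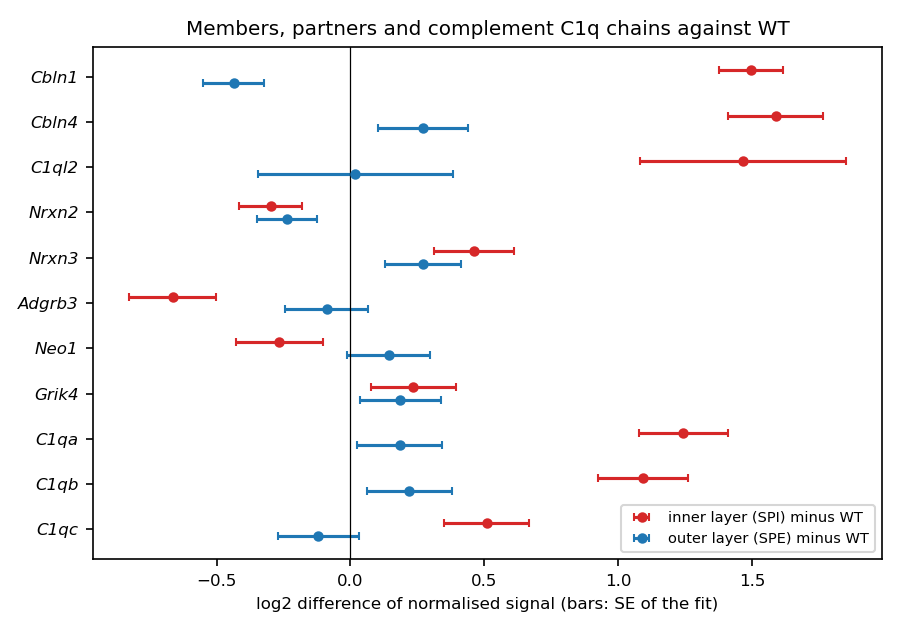
Log2 difference of normalised signal from WT for the inner (SPI) and outer (SPE) layer, with the SE of the fit as bars, for the 3 measured members, 5 receptors and partners and 3 complement C1q chains. The members and C1q chains lie to the right for SPI, Adgrb3 lies to the left at -0.66, and the SPE points lie nearer 0.

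Other synaptic organisers moved in both directions. Of 60 such genes, 44 were measured. In the inner layer against WT 7 were called higher and 9 lower, with a median of 0.030. Of all features 13.6% were called higher and 10.9% lower there, and 10.8% and 9.65% against the outer layer, so calls in both directions were common. Elfn1, a postsynaptic protein of somatostatin interneurons, was 1.29 ± 0.20 log2 units higher (limma, adjusted p = 0.000625). Wnt7a, a secreted factor that promotes presynaptic assembly, was 1.20 ± 0.21 higher (limma, adjusted p = 0.00156). Ntng2, a presynaptic netrin-G, was not detected on any inner array and was at least 1.23-fold higher in WT (limma, adjusted p = 0.00126). Against the outer layer 5 were called higher and 9 lower, among them Nptx1, a pentraxin that gathers glutamate receptors, which fell by 1.44 ± 0.25 (limma, adjusted p = 0.00141). Against WT Nptx1 fell by 1.62 ± 0.30 (limma, adjusted p = 0.00207), a call lost with mean raw signal as a covariate (limma, adjusted p = 0.0717; range over alternatives 0.00093 to 0.0717). Against WT, 3 were called higher and 1 lower with mean raw signal as a covariate, and 0 higher and 16 lower under median scaling over all probes. With arrays scaled to the median of the detected probes 10 were called higher and 4 lower, and Ntng2 turned to 0.0096.

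Most interneuron markers were higher in the inner layer, as were Cbln1, Cbln4 and C1ql2 and, as given below, most oligodendrocyte markers. Of 14 measured interneuron markers, 9 were called higher and 2 lower in the inner layer against WT, with a median of 1.18, and 11 were called higher against the outer layer, with a median of 1.22. Cort, the peptide cortistatin, was 2.29 ± 0.21 log2 units above WT, Npy 1.99 ± 0.20, Sst 1.24 ± 0.14 and Pvalb, the calcium buffer of fast-spiking cells, 1.04 ± 0.12. Gad1, which makes the transmitter GABA, was 1.20 ± 0.18 above WT, whereas Cck and Nos1 fell by 0.39 ± 0.13 and 0.69 ± 0.23. Neither of these lower calls was made with array weights, with mean raw signal as a covariate, with scaling to the detected probes, without animal 148 or without the 3 dimmest arrays. Summed signal of the 14 was 17689 to 21389 in the inner layer, 12610 to 14569 in WT and 11095 to 12414 in the outer layer. Gad2, Lhx6 and Dlx5 were detected on no array. Without the inner array of animal 147, 11 of the markers were called higher against WT, and under median scaling over all probes 1 interneuron marker and 0 C1q chains were. The part of interneurons in the values of the members was not tested.

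Glial and other neuronal markers also differed. Against WT, 9 of 11 oligodendrocyte, 5 of 10 astrocyte and 3 of 5 oligodendrocyte precursor markers were called higher in the inner layer and none lower. Their median differences were 1.34, 0.60 and 1.15 log2 units in that order. Under median scaling over all probes these counts were 1 oligodendrocyte marker higher and 1 lower, 0 astrocyte markers and 1 precursor marker higher. Of 9 pan-neuronal markers 1 was called higher and 4 lower, with a median of -0.30 and a summed signal of 60099 to 65959 in the inner layer and 67534 to 69498 in WT. None of the 9 was called with mean raw signal as a covariate, and 0 were called lower without the inner array of animal 148. Of 3 pan-pyramidal markers 1 was called higher and 1 lower. Of the 8 CA3 pyramidal markers 1 was called higher, Bok, and 1 lower, Cpne4. Of all features 13.6% were called higher and 10.9% lower. Between layers 1 CA3 marker was called higher and 3 lower. None of these calls between layers was made with mean raw signal as a covariate or with the animal as a fixed block. Against WT, among 5 measured CA1 markers, 2 were higher, Mpped1 and Pou3f1. Of 12 dentate granule cell markers, the cells that make C1ql2, 2 were measured, Trpc6 and Npnt, and neither was called, while Calb1, Tdo2 and Stxbp6 were on no array above background and Prox1 was on 2. Summed granule marker signal was 54.1 to 85.4 in the inner layer and 51.6 to 68.3 in WT. Of 5 hilar mossy cell markers 2 were measured and neither was called. The part of these cells in the values of the members was not tested.

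The features most like each member across the 14 arrays differed from member to member. For Cbln1 the highest Pearson correlations of normalised log2 signal were with Nxph1 (0.975), Mpped1 (0.973), Pvalb (0.970), Btbd11 (0.965) and Gjd2 (0.965). Nxph1 is a secreted neurexin ligand of interneurons and Gjd2 the gap junction protein connexin 36 of interneurons, while Mpped1 was listed as a CA1 marker. For Cbln4 the highest correlations were with Gpc5 (0.989), 1 unnamed probe (0.979), Cldn10 (0.978), Gja1 (0.976) and Zfp36l1 (0.975). Gpc5, Cldn10 and Gja1 are known from astrocytes. For C1ql2 they were with Golga2 (0.966), Efna5 (0.962), Kcnc4 (0.960), Kirrel3 (0.954) and Zdhhc1 (0.946). Kirrel3 is an adhesion molecule of mossy fibre synapses and Kcnc4 a potassium channel of mossy fibre terminals. These correlations pool arrays of 3 groups that share brightness and animals, and are a description. Those of Cbln1 also use the values by which Cbln1 was chosen. None of the 5 features given for Cbln1 was among its 5 nearest after group means were taken out.

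After each group's mean was taken out, the likeness shifted for Cbln1 more than for the others. Cbln1 deviations then ran closest to those of Actb (0.880), Cbln4 deviations to those of Gad1 (0.924) and Gpc5 (0.920), and C1ql2 deviations to those of Kcnc4 (0.942), Golga2 (0.938) and Kirrel3 (0.933). Kcnc4, Golga2 and Kirrel3 were among the 5 nearest features of C1ql2 both ways, and Gpc5 was for Cbln4. For C1ql2 a few arrays lay far from their group means. They were the inner array of animal 147 (9.36 against a mean of 8.01), WT animal 144 (7.33 against 6.51) and the outer array of animal 148 (7.41 against 6.53). The C1ql2 correlations may rest on these arrays, which was not tested. Among the members themselves the correlation over all arrays was 0.874 for Cbln1 with Cbln4, 0.752 for Cbln1 with C1ql2 and 0.806 for Cbln4 with C1ql2. Within groups it was 0.388, 0.248 and 0.465 in the same order.

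**Figure D5:**
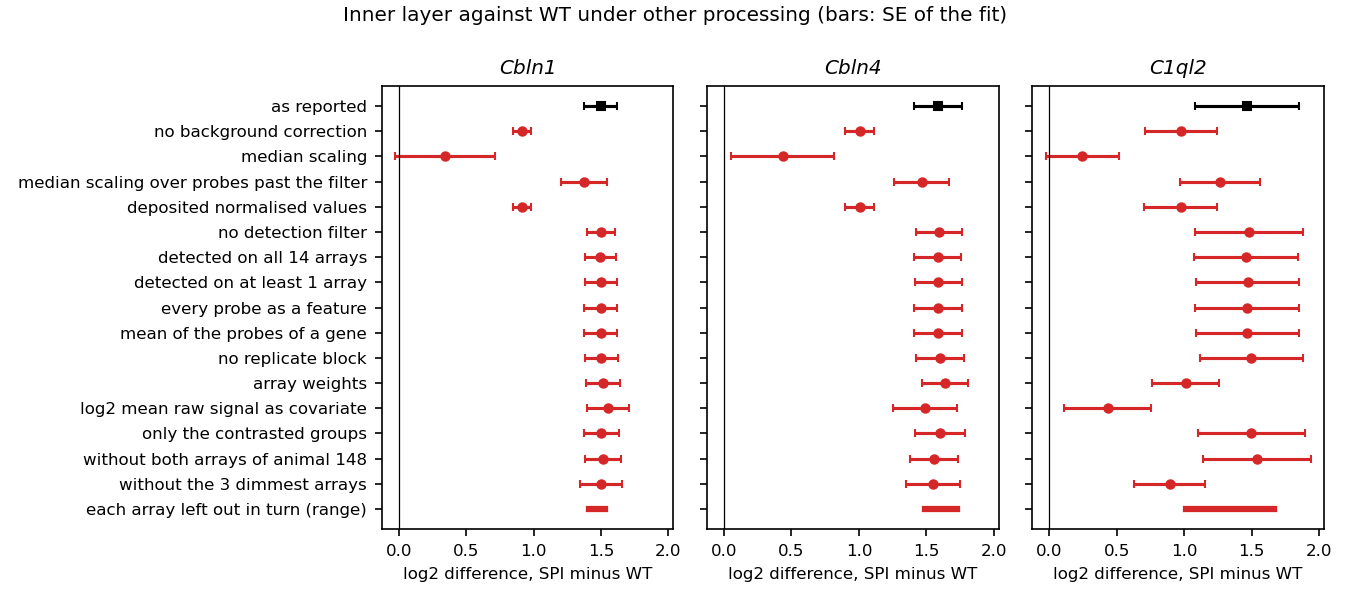
Log2 difference between inner layer (SPI) and WT for Cbln1, Cbln4 and C1ql2 as reported (square), under each alternative processing (circles, bars are the SE of the fit) and as the range when each array is left out in turn (thick line). All values lie to the right of 0, with the lowest, 0.34, 0.44 and 0.25, under median scaling over all probes, and C1ql2 also drops to 0.43 with mean raw signal as a covariate.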

How the data were processed

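Total RNA of dissected CA3 was amplified, biotin-labelled and hybridised to Illumina bead arrays, per the labels' protocols. The deposited tables give 25697 probes 1 linear intensity and 1 detection p-value per array, not normalised between arrays, and, in a second table made by the authors, normalised intensity values that kept the probe ranks of each array. The submitters' processing notes name BeadStudio, with no version. Its background treatment was not stated there, and the minimum intensity of each array was 71.3 to 88.6 and thus not 0. The detection p-values moved in steps of 1 in 798 negative controls. From the deposited intensity values, log2 signal was computed with neqc of limma 3.58.1 in R 4.3.3 (normexp with an offset of 16, control moments estimated through the detection p-values, then quantile normalisation).

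The filter kept 12140 probes, those with a detection p under 0.05 on 4 or more arrays. Each gene was read by its brightest probe on average, which gave 9355 features, 684 without a name. The platform annotation gave 1 gene symbol for 23978 probes and none for 1719. One limma fit held all 14 arrays and 3 groups, with the animal as a random block (consensus correlation 0.319, 11 residual degrees of freedom). Animal numbers in the titles paired the layers. With group means removed, both layers of an animal correlated at 0.131 (147), 0.262 (146), 0.266 (166) and 0.626 (148). Against outer layers of other animals, inner layers reached at most 0.0840 (147), 0.254 (146), 0.314 (166) and -0.250 (148), so animal 166 correlated better with a different animal. P-values were two-sided and Benjamini-Hochberg adjusted over all features, with a call at 0.05. Titles name 1 animal per sample, so p-values against WT measure the spread between these animals. Those of SPI against SPE rest in part on the spread of differences within the animals that gave both layers. The number of arrays limits the precision.

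Members and gene lists were chosen with earlier results of these data known. Named were all members, every measured partner, family gene and C1q chain, and, of each other list, called genes among the 3 of smallest p per comparison; Gad1, Cck, Nos1, Dcx and the granule cell and undetected markers were added after their values were seen. Where all arrays of a group lacked detection a bound was computed from the lowest signal above background on each array. Promoters came from RefSeq (GRCm38.p6). Fits were checked on simulated data. Alternatives changed the background correction, scaling, filter, probe summary, block, array weights, brightness covariate and arrays used. Some list genes are not reported here.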

Additional observations from a re-analysis of the deposited data

Results flagged for a closer look

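Among the 48 groups of values examined, 7 held an array whose distance from its nearest neighbour was large for the range of its group, where chance gives about 2.4 (1 in 20). Cbln1 was low in WT animal 199, at 5.93 log2 units against 6.33 for the nearest WT array. Animal 148 gave 4 of the others, with low readings of Nrxn2 in the inner layer (10.27 against 10.65), Grik4 in the inner layer (7.17 against 7.73), Adgrb3 in the outer layer (7.63 against 8.14) and Ntng2 in the outer layer (4.30 against 5.10). Ntng2 was low in WT animal 144 (5.20 against 5.35) and Wnt7a in WT animal 206 (5.13 against 5.67).

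For Cbln4 the difference from WT was larger in the inner than in the outer layer, by 1.32 ± 0.15 log2 units (limma, adjusted p = 3.18e-05). For C1ql2 it was larger by 1.45 ± 0.32 (limma, adjusted p = 0.00638). These are tests of the difference between the layers themselves. Normalised signal was higher in the inner layer in 4 of 4 animals for both genes. Raw signal was higher there in 3 of 4 animals for Cbln4 and in 2 of 4 for C1ql2.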

How the results depend on the processing

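For SPI against WT, SPE against WT and SPI against SPE, Cbln1 read 0.92, -0.20 and 1.11 log2 units without background correction, 0.92, -0.20 and 1.11 in the authors' deposited normalised values, and 0.34, -0.66 and 1.00 under median scaling over all probes. That scaling put the median of all features at -0.85, -0.13 and -0.73. Cbln4 then read 0.44 (SPI against WT) and 0.39 (SPI against SPE), and C1ql2 0.25, -0.21 and 0.46. Nrxn3 read -0.73 and -0.80, Grik4 -0.92, -0.042 and -0.87, C1qc -0.33 and -0.052, and Neo1 in SPE -0.047. The scaling over all probes called 4019 features against WT (16 higher, 4003 lower), 0 between layers, and 0 list genes between layers. Median scaling over detected probes, chosen after seeing the data, called 3191 (2469 higher, 722 lower), with Ntng2 at 0.0096 against WT and 0.17 against SPE, Elfn1 at 0.13 in SPE, and Nrxn3 at -0.0045 and Grik4 at -0.077 between layers; the causes were not tested. Mean raw signal as a covariate gave C1ql2 0.43, -0.17 and 0.61, Grik4 -0.018 between layers, 503 calls against WT and 781 between layers, and 7 and 9 list genes (21 and 19 as reported). The replicate block (animal as fixed block, 4 pairs) gave C1ql2 1.38 (limma, adjusted p = 0.0862), 356 calls and 7 list genes. Fits with no replicate block gave 1065 calls and 11 list genes between layers. Fits of the contrasted groups alone gave 12 list genes against WT and 1177 calls between layers, with fewer samples. No detection filter gave 12 list genes between layers. With array weights C1ql2 in SPE read -0.17, Adgrb3 in SPE 0.018 and Nrxn2 between layers 0.0018, with 29 list genes. Without animal 148 these read -0.21, 0.030 and 0.013, and without the 3 dimmest arrays -0.21, 0.030 and 0.023, with 1175 calls between layers. Leaving out each array in turn gave, between layers, 946 to 2217 calls and 11 to 22 list genes, Grik4 -0.025 to 0.20 and Nrxn2 -0.10 to 0.039; against WT, 12 to 21 list genes; and in SPE against WT, C1ql2 -0.21 to 0.22, Adgrb3 -0.18 to 0.023, C1qc -0.19 to 0.00076 and Elfn1 -0.050 to 0.091. Leaving out 1 array kept the calls of Cbln4 (1.49 to 1.73 against WT) and C1ql2 (1.01 to 1.67). Dim probes near background limit Cbln2 and C1ql3.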
